A study of Homo sapiens with 6 samples.

Results

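Expression of 9 genes of homologous recombination and of the Fanconi anemia pathway was examined in the human glioblastoma cell line U373MG after exposure to marine alkaloids of the tetrahydroisoquinoline class. The genes were taken by their symbols in the probe annotation: BRCA1, BRCA2, PALB2, RAD51B, RAD52, FANCA, FANCC, FANCD2 and EXO1. Of these 9 genes, 6 were measured, each by 1 probe set, among 18417 genes in all. BRCA2, FANCA and FANCD2 were not analysed here. The cells received ET-770 (4.83 nM), ET-770-DR (1.70 nM), which is a pyridinecarbonyl derivative of it, or renieramycin M (RM, 3.10 nM). Other cells received DMSO, the vehicle, at a matching concentration. Exposure lasted 24 hours, and each compound was given at its IC50, which had been determined with a longer treatment. There were 3 independent experiments, each with 1 compound array and 1 DMSO array of its own, 6 Human Gene 1.0 ST arrays in all. The vehicle array of the same experiment was the control throughout. A fold change with a single compound rests on 1 array per arm and was not tested. Since the doses differed, values of the compounds are given side by side, and no difference between compounds was tested. All the arrays come from 1 cell line, and nothing in the labels gives more than 1 culture per arm.

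Homologous recombination repairs a broken DNA double strand by copying an intact sister chromatid. Nucleases such as EXO1 first resect the broken ends to single strands, and BRCA1, PALB2, BRCA2 and RAD51B then act on these strands in the steps that lead to strand exchange. RAD52 anneals complementary single strands in a neighbouring route. The Fanconi anemia pathway acts on crosslinks between DNA strands: a nuclear core complex that holds FANCA and FANCC attaches ubiquitin to FANCD2, and the crosslink is then cut out and handed to recombination. Many of these genes are expressed mainly in dividing cells, around DNA replication.

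The 6 measured genes did not move in one direction. In the response shared by the compounds, EXO1 and PALB2 rose, RAD51B and FANCC fell, and BRCA1 and RAD52 were not called. EXO1 was 2.33-fold of DMSO on average, PALB2 1.57-fold, RAD51B 0.390-fold and FANCC 0.384-fold. The shared response was fitted with limma on log2 signals over the whole gene table, blocking on experiment (n = 3 pairs), so that the compounds serve as replicates of each other and their differences count as spread. At an adjusted p of 0.05 in limma, 13.1% of all genes rose and 11.2% fell, against 2 and 2 of the 6 genes here. Without the RM experiment 4 of the 6 genes rose, and 3506 of all 18417 genes did. Without the ET-770 experiment 1 of the 6 rose, and 1200 of all genes did. The median change of the 6 genes was 0.28 on the log2 scale, beside 0.03 over all genes. It lies between the changes of RAD52 (0.23) and BRCA1 (0.32), which were not called, and does not describe the genes that rose or fell.

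The sequences upstream of the start sites are shown for the 4 genes that were called, because the calls split them into a pair that rose and a pair that fell. They are the 250 bases before a start listed in RefSeq (GRCh38.p14), 5′ to 3′ on the strand of the gene, and capitals mark every match to a short motif. The motifs searched on both strands were TTTCCCGC, TTTCGCGC, TTTGCCGC and TTTGGCGC (spellings of the E2F site), TTTGAA (the core of the CHR element), CCAAT (the NF-Y box) and GGGCGG (the GC box). EXO1 stands first, on the plus strand at chr1:241847954-241848203, PALB2 second, on the minus strand at chr16:23641311-23641560, FANCC next, on the minus strand at chr9:95317710-95317959, and RAD51B last, on the plus strand at chr14:67823291-67823540.
EXO1: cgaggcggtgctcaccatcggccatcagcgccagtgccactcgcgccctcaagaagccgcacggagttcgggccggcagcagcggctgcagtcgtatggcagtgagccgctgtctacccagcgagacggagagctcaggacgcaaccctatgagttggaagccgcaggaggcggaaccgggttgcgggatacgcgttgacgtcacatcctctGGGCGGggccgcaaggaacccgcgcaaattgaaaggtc
PALB2: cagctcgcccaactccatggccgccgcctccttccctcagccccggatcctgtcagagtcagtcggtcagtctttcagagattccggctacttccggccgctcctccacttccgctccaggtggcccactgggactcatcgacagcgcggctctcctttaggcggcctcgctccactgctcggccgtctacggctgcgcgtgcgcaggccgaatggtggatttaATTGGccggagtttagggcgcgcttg
FANCC: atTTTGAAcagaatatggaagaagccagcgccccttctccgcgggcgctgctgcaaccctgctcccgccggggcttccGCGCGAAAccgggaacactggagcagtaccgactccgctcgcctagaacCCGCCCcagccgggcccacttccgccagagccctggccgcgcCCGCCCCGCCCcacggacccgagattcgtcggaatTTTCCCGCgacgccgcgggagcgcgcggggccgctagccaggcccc
RAD51B: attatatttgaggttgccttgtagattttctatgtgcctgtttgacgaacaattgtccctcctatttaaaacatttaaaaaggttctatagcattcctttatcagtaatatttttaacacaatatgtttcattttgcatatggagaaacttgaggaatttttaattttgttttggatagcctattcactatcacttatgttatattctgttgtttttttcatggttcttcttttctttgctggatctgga
Upstream of EXO1 there was 1 GC box, which 42.6% of all 35116 promoters hold in the same window, and upstream of PALB2 1 CCAAT box, which 32% hold. FANCC, which fell, is the gene with E2F spellings in its window, 2 of them, beside 1 CHR core and 3 GC boxes, of which a pair share a base. An E2F spelling stands in 2.79% of all promoters and the CHR core in 13.3%. A further FANCC start held 4 GC boxes, a further EXO1 start held no match, and no match stood at either listed start of RAD51B or of RAD52. Both RAD51B windows lie inside the RefSeq span of the gene, as do most of the EXO1 window shown, the further windows of EXO1, FANCC and BRCA1 and both windows of RAD52. The FANCC and PALB2 windows shown lie just outside the span. The RAD51B window shown had a GC content of 29.6%, below the 58% median of all promoters. BRCA1 held 1 GC box at one start and 1 CCAAT box at the other. These matches describe the letters of the windows and say nothing about binding.

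**Figure D1:**
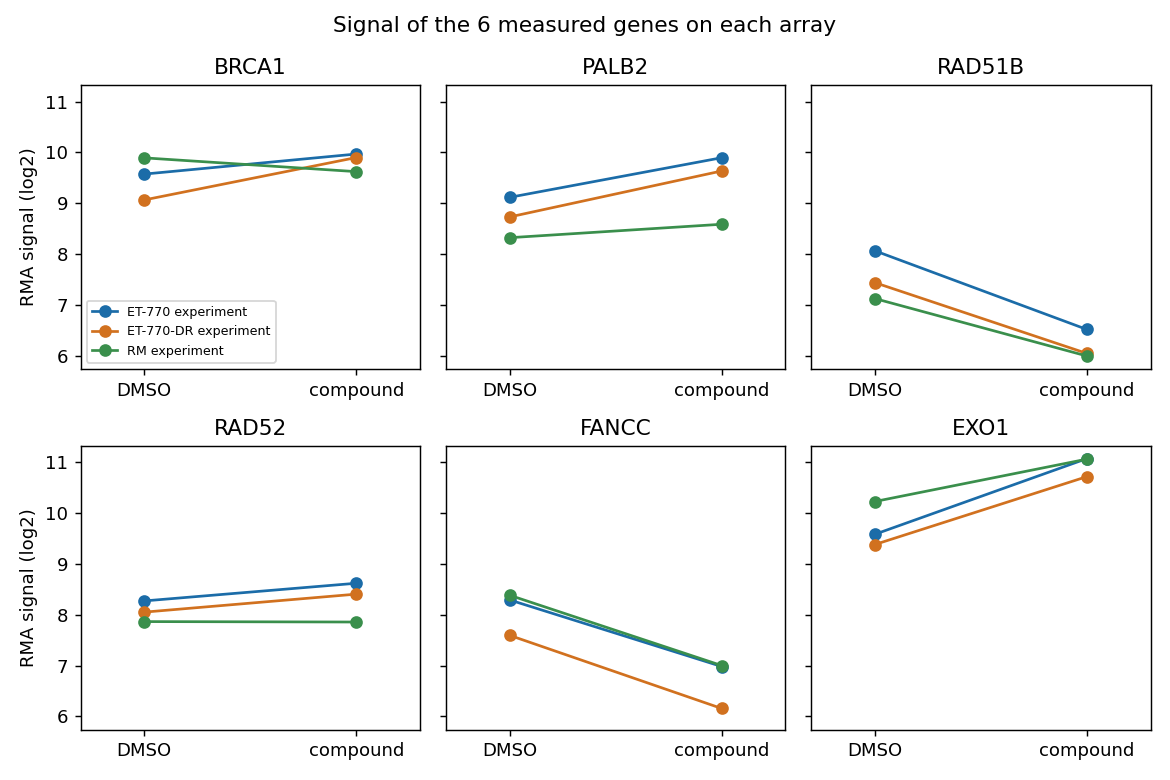
RMA signal (log2, vertical axis) of the 6 measured genes on the DMSO and the compound array of each experiment; a line joins the 2 arrays of an experiment. EXO1 lay at 9.38 to 10.23 on the DMSO arrays and at 10.72 to 11.07 on the compound arrays, while RAD51B and FANCC lay lower on every compound array than on any DMSO array.

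EXO1 encodes an exonuclease that lengthens the resected ends of a break and also removes the mismatched strand in mismatch repair. Its log2 signal was 9.58, 9.38 and 10.23 on the DMSO arrays of the ET-770, ET-770-DR and RM experiments and 11.07, 10.72 and 11.06 on the compound arrays in the same order. Every compound array was above every DMSO array, although the DMSO arrays themselves spread over 0.85 log2 units. Relative to DMSO, ET-770 gave 2.81-fold, ET-770-DR 2.53-fold and RM 1.78-fold. The mean change was 1.22 on the log2 scale, with a standard error of 0.15 and an adjusted p of 0.00038 in limma. The rise was seen in 3 of 3 experiments.

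PALB2 is the partner that links BRCA1 to BRCA2. Its log2 signal went from 9.11 to 9.90 with ET-770, from 8.73 to 9.63 with ET-770-DR and from 8.32 to 8.59 with RM. PALB2 was higher with the compound in each of the 3 experiments, but the groups overlap, since the RM array lay below the DMSO arrays of both other experiments. The fold changes were 1.72, 1.87 and 1.20. The mean change was 0.65 on the log2 scale, with a standard error of 0.15 and an adjusted p of 0.011 in limma. Without the ET-770 experiment the change was 0.59 and the adjusted p in limma 0.075, and without ET-770-DR they were 0.52 and 0.048. Over the 9 alternatives the change ranged from 0.52 to 0.84 and the adjusted p from 4.7e-06 to 1. Set against the mean of the 3 DMSO arrays, the change with RM turned to -0.14, where the median of all genes was -0.13.

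RAD51B acts in strand exchange, as part of a complex that binds single-stranded DNA. Its log2 signal on the DMSO arrays was 8.06, 7.44 and 7.12 in the ET-770, ET-770-DR and RM experiments, and on the compound arrays 6.51, 6.04 and 5.99. All compound arrays were below all DMSO arrays. Relative to DMSO, ET-770 gave 0.342-fold, ET-770-DR 0.380-fold and RM 0.456-fold. The mean log2 change was -1.36, with a standard error of 0.13 and an adjusted p of 0.00010 in limma, and the gene was lower in 3 of 3 experiments.

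FANCC is a subunit of the Fanconi core complex. It went from a log2 signal of 8.29 to 6.98 with ET-770, from 7.60 to 6.16 with ET-770-DR and from 8.39 to 7.0 with RM. The compound arrays again lay below all DMSO arrays. The folds of 0.403, 0.368 and 0.383 were the closest to each other among the 6 genes, with an SD of 0.06 over the 3 log2 changes, whereas that of BRCA1 was 0.56. The mean log2 change was -1.38, with a standard error of 0.12 and an adjusted p of 5.5e-05 in limma.

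BRCA1, a ubiquitin ligase that favours resection and recruits PALB2, was not called. Its log2 signal went from 9.57 to 9.97 with ET-770, from 9.06 to 9.90 with ET-770-DR and from 9.89 to 9.62 with RM. The arrays of both groups overlap, and the DMSO array of the RM experiment was nearly as high as the highest compound arrays. The mean change was 0.32 with a 95% interval of -0.11 to 0.75 and an adjusted p of 0.30 in limma, so that a rise of more than 1.5-fold lies within the interval. The value depends on the experiments taken: the change was 0.62 without RM, with an adjusted p of 0.00065 in limma, and 0.06 without ET-770-DR, with an adjusted p of 0.88. Over the 9 alternatives the adjusted p ranged from 0.00065 to 1. Against the mean of the 3 DMSO arrays, the change with RM was 0.11 in place of -0.27.

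RAD52, which anneals complementary single strands, was not called either. Its log2 signal went from 8.27 to 8.62 with ET-770 and from 8.05 to 8.41 with ET-770-DR, and it was 7.87 and 7.86 on the arrays of the RM experiment. The spread of the DMSO arrays, 0.41 log2 units, was larger than the mean change of 0.23, whose 95% interval ran from -0.06 to 0.53, with an adjusted p of 0.27 in limma. Without the RM experiment the mean change was 0.35 and the adjusted p 0.044 in limma, with a range over the 9 alternatives from 0.044 to 1. The change with RM, -0.01, became 0.03 after quantile normalization.

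**Figure D2:**
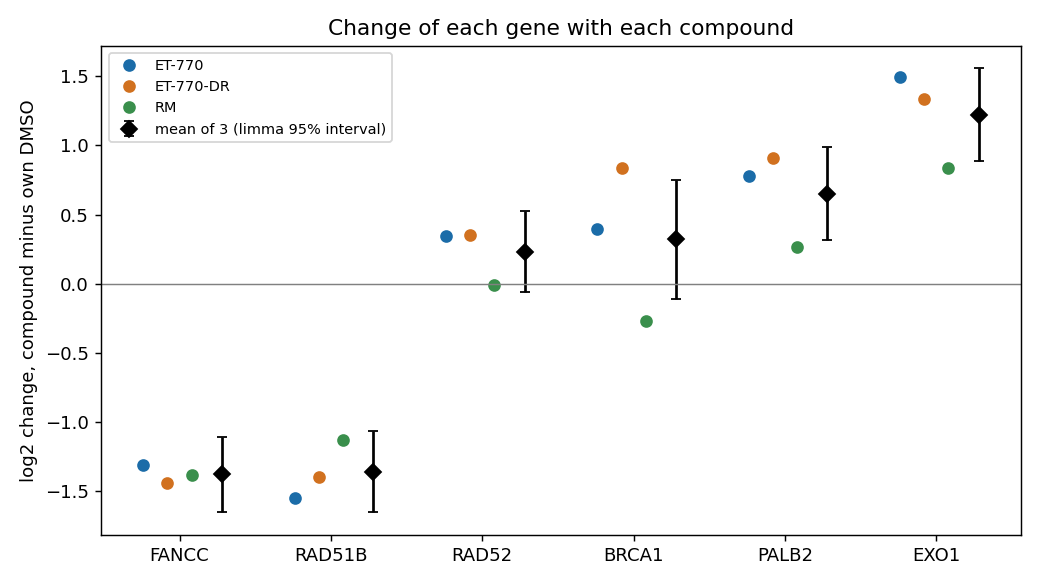
Log2 change of each gene (compound minus the DMSO array of the same experiment, vertical axis) with ET-770, ET-770-DR and RM (coloured points, 1 array per arm), and the mean of the 3 with its 95% interval from limma (black). The intervals of FANCC and RAD51B lie below 0, those of PALB2 and EXO1 above 0, and those of RAD52 and BRCA1 include 0.

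The groups of arrays did not overlap for 3 of the 6 genes: EXO1 had all compound arrays above the DMSO arrays, as did 3.62% of all genes, and RAD51B and FANCC had them all below, as did 5.34%. An exact test of 3 arrays against 3 cannot give a two-sided p below 0.1. With ET-770, 2 of the 6 genes passed 1.5-fold upward (EXO1 and PALB2), beside 8.32% of all genes, and 2 passed it downward (RAD51B and FANCC), beside 8.56%. With ET-770-DR, BRCA1 joined EXO1 and PALB2 above 1.5-fold, beside 12.2% of all genes, and the same pair fell below it, beside 10.4%. With RM, EXO1 was the gene above 1.5-fold, beside 6.21% of all genes, and RAD51B and FANCC were below it, beside 9.64%. RAD51B and FANCC thus lay below the inverse of 1.5-fold with every compound.

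At 2-fold, EXO1 remained above the limit with ET-770, beside 2.01% of all genes, and with ET-770-DR, beside 3.84%, and none of the 6 genes did with RM, beside 0.668%. RAD51B and FANCC were under the inverse of 2-fold with all the compounds, beside 4.68% (ET-770), 4.94% (ET-770-DR) and 4.28% (RM) of all genes. Of the 6 genes, 0 passed 3-fold in either direction with any compound, a limit that 2.38%, 2.63% and 1.4% of all genes passed with ET-770, ET-770-DR and RM. The nearest to it was RAD51B with ET-770.

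The other genes of homologous recombination were taken as a list of 42, of which 38 were measured. The others were not analysed here. In limma, 11 rose, 3 fell and 24 were not called, and the median log2 change was 0.20. These are 28.9% and 7.89% of the measured list, beside 13.1% and 11.2% of all genes. The count of risen genes was 18 without the RM experiment, when 3506 of all genes rose in place of 2406, and 0 without the block. SFR1, which acts with SWI5 in strand exchange, rose by 1.22 log2 units on average (SE 0.18, adjusted p 0.0010 in limma), with 2.86-fold, 2.85-fold and 1.56-fold of DMSO in the ET-770, ET-770-DR and RM experiments. RMI1, part of the complex with the BLM helicase that resolves joined DNA molecules, rose by 1.02 (SE 0.15, adjusted p 0.00090 in limma). Both overlapped between the groups because their DMSO arrays spread over 1.42 and 1.34 log2 units.

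The largest change among the called genes of that list was a fall. BABAM2, a subunit of the BRCA1-A complex that holds BRCA1 at ubiquitin marks, went from 10.22 to 8.04 with ET-770, from 9.03 to 7.15 with ET-770-DR and from 10.25 to 8.27 with RM. Its mean log2 change was -2.02, with a standard error of 0.13 and an adjusted p of 9.3e-06 in limma. The other 2 that fell were the kinase ATM, which signals from double-strand breaks, at -0.68, and the helicase WRN at -0.65. ATM and WRN were lower than DMSO in 3 of 3 experiments.

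The list of further Fanconi pathway genes held 25, of which 24 were measured, and shares SLX4, BRIP1 and RAD51C with the recombination list. In limma 10 rose, 0 fell and 14 were not called, and at an unadjusted p under 0.05 the counts were 12 and 1. The risen are 41.7% of the measured list, beside 13.1% of all genes. Their count was 4 without the ET-770 experiment, when 1200 of all genes rose, and 0 without the block. The median log2 change was 0.27. FANCC moved in the direction opposite to its called partners in the core complex. Of these, FAAP24, which guides the complex to DNA, rose by 0.97 (SE 0.13, adjusted p 0.00061 in limma), FANCB by 0.92 (SE 0.19, adjusted p 0.0070 in limma) and FANCG by 0.88 (SE 0.14, adjusted p 0.0017 in limma). FAAP24 was 1.79-fold, 1.84-fold and 2.27-fold of DMSO in the ET-770, ET-770-DR and RM experiments, and FANCG 1.97-fold, 2.17-fold and 1.46-fold. All compound arrays were above all DMSO arrays for these 3 genes. REV3L, the catalytic subunit of the translesion polymerase zeta, had the lowest change of the list, -0.43, and was not called.

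EXO1 also serves in mismatch repair, whose other genes were counted beside it. Of 7 listed, 5 were measured. MSH6, a subunit of the mismatch sensor, rose by 0.64 (SE 0.17, adjusted p 0.020 in limma). MSH3, a subunit of the sensor of larger loops, fell by 1.46 on the log2 scale (SE 0.12, adjusted p 4.5e-05 in limma), and the other 3 were not called. The 1 that rose and the 1 that fell are each 20.0% of the measured list, beside 13.1% and 11.2% of all genes. In end joining, the competing route that ligates broken ends directly, 3 of 15 rose, 2 fell and 10 were not called, with a median of 0.09. These are 20.0% and 13.3% of the list, beside the 13.1% and 11.2% of all genes. XRCC4, the scaffold of the ligase, had the largest change of all the repair genes listed: it went from 9.62 to 6.38 with ET-770, from 9.70 to 6.59 with ET-770-DR and from 9.71 to 7.89 with RM. Its mean log2 change was -2.72 (SE 0.24, adjusted p 6.0e-05 in limma). The kinase PRKDC fell by 0.59 on the log2 scale, with an adjusted p of 0.012 in limma, and the nuclease DCLRE1C rose by 0.46, with an adjusted p of 0.044 in limma.

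**Figure D3:**
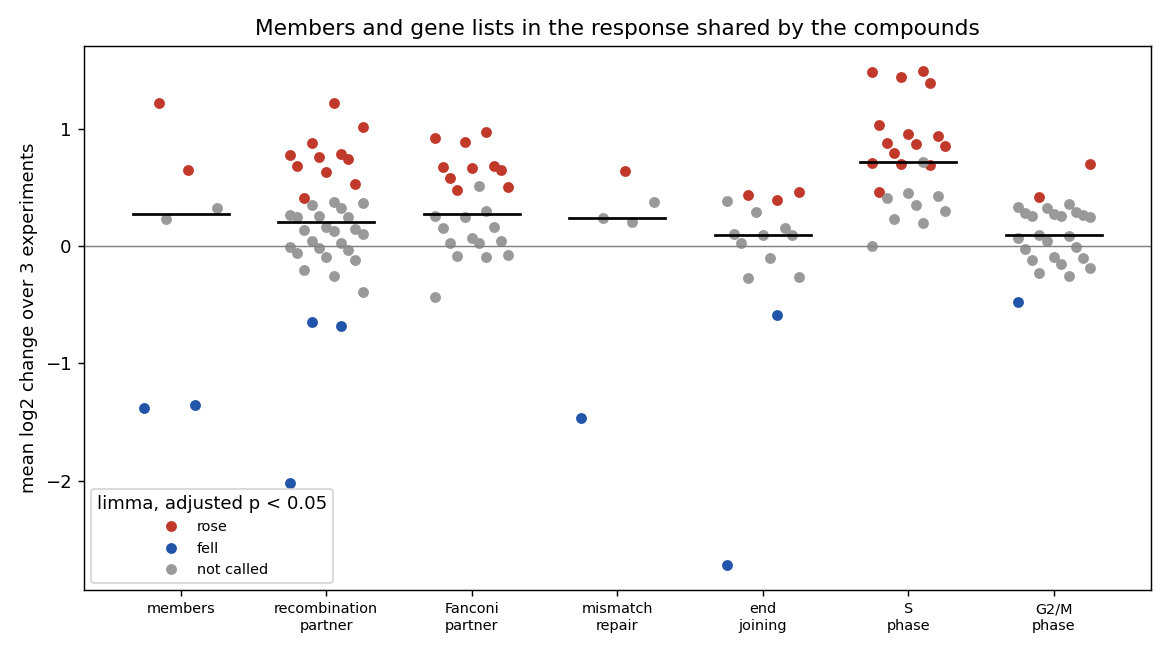
Mean log2 change over the 3 experiments (vertical axis) of each measured gene in the 6 genes described here and in lists of other repair genes and cell cycle genes; red rose, blue fell and grey was not called in limma, and the bar is the median of the list. The S phase list has the highest median, 0.71, and the called falls of the repair lists run from -0.59 for PRKDC to -2.72 for XRCC4.

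Genes of the cell cycle were measured on the same arrays. Of 24 genes that mark S phase, 15 rose, 0 fell and 9 were not called in limma, with a median log2 change of 0.71. The risen are 62.5% of the list, beside 13.1% of all genes. At an unadjusted p under 0.05, 20 rose and 0 fell. By compound the list had medians of 0.82 (ET-770), 0.99 (ET-770-DR) and 0.23 (RM), beside 0.02, -0.03 and 0.12 over all genes. Its summed linear signal ranged from 23724 to 40171 on the DMSO arrays and from 44499 to 70410 on the compound arrays. Of 26 genes that mark G2 and M phase, 2 rose, 1 fell and 23 were not called, with a median of 0.09. These are 7.69% and 3.85% of the list, beside 13.1% and 11.2% of all genes. EXO1 and PALB2 thus rose on arrays where S phase genes were also higher, and the part of cell cycle position in their rise was not tested. On arrays of whole cultures, a change in the share of cells in a phase and a change of RNA per cell cannot be told apart.

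The gene whose log2 signal ran most closely with that of EXO1 over the 6 arrays was CDC6, the licensing factor of replication origins and a member of the S phase list, at a Pearson correlation of 0.996. CDC6 changed by 1.82, 1.53 and 0.83 with ET-770, ET-770-DR and RM, respectively, beside 1.49, 1.34 and 0.83 for EXO1. The nearest genes to the others were ACP1 for PALB2 (0.998), MAP9 for BRCA1 (0.995), ST3GAL3 for RAD51B (0.999), AGK for FANCC (0.997) and LINC00052 for RAD52 (0.999). These are descriptions over 6 arrays that share treatments and experiments. A correlation above 0.95 was found with 15 genes for BRCA1, 88 for EXO1, 267 for FANCC, 303 for PALB2, 360 for RAD52 and a somewhat larger number for RAD51B.

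The genes that rose and fell differed in length. By the RefSeq gene table (GRCh38.p14), RAD51B spans 863 kb and FANCC 219 kb, BRCA1 126 kb, RAD52 79.4 kb, EXO1 42.0 kb and PALB2 38.1 kb. By these whole spans, the pair that fell are the longest of the 6 and the pair that rose the shortest. A start listed inside the span of RAD52 gives a shorter transcript, so its place in this order depends on the start taken. Over all genes with a span, the median log2 change was 0.08 for genes up to 10 kb, 0.11 from 10 to 50 kb, -0.04 from 50 to 100 kb, -0.33 from 100 to 200 kb and -0.55 above 200 kb. Among the 1310 genes above 200 kb, 53.1% fell and 0.153% rose in limma. Among the 7363 genes of 10 to 50 kb, 2.24% fell and 19.4% rose. RAD51B and FANCC fell further than the median of their span class, and BRCA1, in a class in which 43.8% of 1809 genes fell, had a mean change above 0. BRCA1 is in that class by its whole span, and a further start listed inside the span gives a shorter transcript.

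The other repair genes were divided in the same way at 100 kb, a limit chosen, like the classes of span, after values had been seen. Of the 79 measured genes in the 4 repair lists, 17 span more than 100 kb. Of these, 1 rose (FANCB, at 184 kb) and 6 fell: ATM, BABAM2, MSH3, PRKDC, WRN and XRCC4. Of the 62 genes up to 100 kb, 24 rose and 0 fell in limma, and at an unadjusted p under 0.05 the counts were 31 and 1. The medians were -0.26 and 0.29. Among these repair genes, each one called as fallen was thus longer than 100 kb, as were RAD51B and FANCC. Over all genes, 43.8% fell from 100 to 200 kb and 53.1% above 200 kb. The shares of all genes that fell were 1.14% up to 10 kb, 2.24% from 10 to 50 kb and 13.1% from 50 to 100 kb. In these shorter classes 15.8%, 19.4% and 5.11% rose. What links span and change was not tested.

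**Figure D4:**
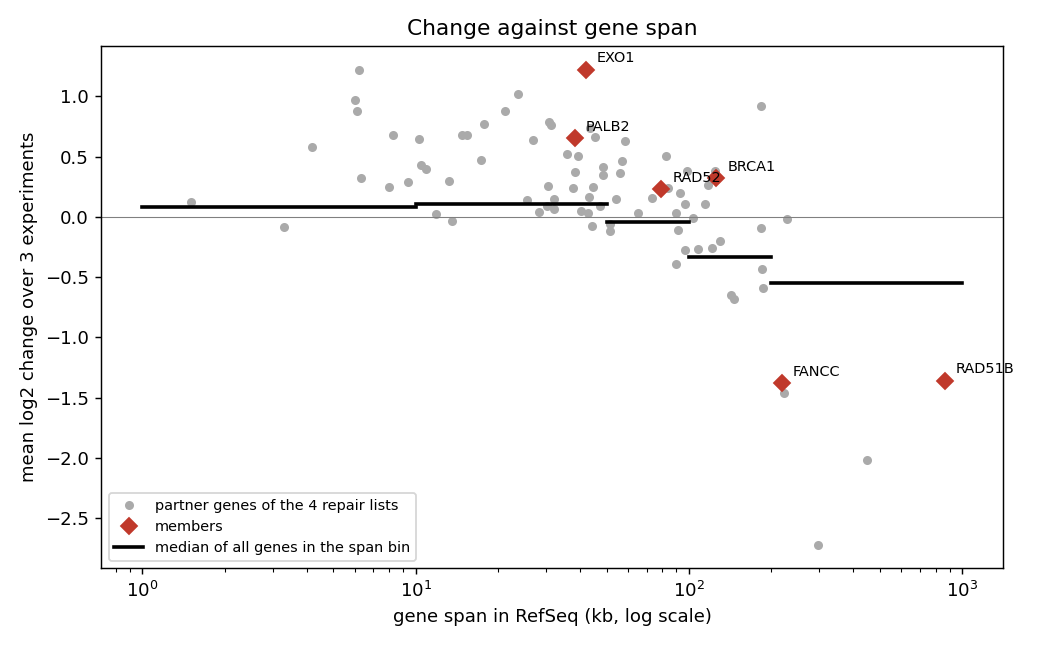
Mean log2 change over the 3 experiments (vertical axis) against the span of the gene in RefSeq (kb, log scale) for the 6 genes (red diamonds) and the repair genes of 4 lists (grey points), with black bars for the median of all genes in a span class. RAD51B, at 863 kb, and FANCC, at 219 kb, lie below the bar of their class, and EXO1 and PALB2 lie above theirs.

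The calls rest on the pairing of the arrays. Without the experiment as a block, 0 of the 6 genes rose and 0 fell in limma, beside 1 and 2 at an unadjusted p under 0.05. The adjusted p was then 0.080 for FANCC, 0.086 for RAD51B, 0.17 for EXO1 and 1 for PALB2, and over the 9 alternatives the log2 change ranged from -1.41 to -1.34 for FANCC, from -1.47 to -1.26 for RAD51B and from 1.09 to 1.41 for EXO1.

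As a check of the cells, the glioma and astrocyte markers were looked up on the same arrays. VIM was bright, with a log2 signal of 12.7 to 13.6, and GFAP was dim, at 6.66 to 7.72. Of the 7 markers, 4 fell in limma (S100B, CD44, SOX2 and EGFR) and 0 rose, also at an unadjusted p. The fallen are 57.1% of these markers, while 11.2% of all genes fell and 13.1% rose. The summed linear signal of the 7 ranged from 21095 to 30279 on the DMSO arrays and from 15547 to 25106 on the compound arrays. Of 9 markers of other cell types, MAP2 fell by 2.49 on the log2 scale and 0 rose, beside 1 at an unadjusted p. This fall is 11.1% of the list, near the 11.2% of all genes that fell. The summed linear signal of these 9 ranged from 704 to 1801 on the DMSO arrays and from 406 to 802 on the compound arrays. MAP2 carries this fall, since without it the other 8 summed to 283 to 662 on the DMSO arrays and to 325 to 608 on the compound arrays. The leukocyte marker PTPRC stayed between 3.41 and 4.35 on the log2 scale. Not all of the 9 were that dim: the endothelial marker CDH5 lay between 5.92 and 8.07 and the epithelial marker KRT8 between 6.42 and 7.48. The neuronal marker MAP2 was the brightest on the DMSO arrays, at 8.72 to 10.15, and lay at 6.35 to 7.60 on the compound arrays. Arrays have no true zero, and the part of these markers in the changes above was not tested. The array medians ranged from 7.22 to 7.97 between experiments and differed by 0.06 at most within one.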

How the data were processed

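Total RNA of U373MG cells was hybridized to 6 Affymetrix Human Gene 1.0 ST arrays. The authors computed RMA signals in Affymetrix Expression Console (versions not given in the sources used here) and deposited them as log2 values for 33297 probe sets. RMA subtracts background, normalizes between arrays and averages the probes along a transcript. Whether the 3 experiments were normalized together is not known.

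The log2 values of probe sets that carry 1 gene symbol (19460) were averaged by symbol. This gave 18417 genes, and 769 have several probe sets. Probe sets with several symbols (1754) or with none (12083) were not used. Gene names and spans came from the RefSeq table of GRCh38.p14, which holds 18388 of the genes. The array files name no build, and no coordinates of genes are printed from it. Upstream sequences came from RefSeq, of the same build.

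Each compound array was paired with the DMSO array that the labels name as its control. Deviations from the group means correlated within these pairs at 0.83, 0.69 and 0.82, and between others at 0.24 at most. For the shared response, limma (version 3.58.1, R version 4.3.3) fitted treatment beside an experiment block, with eBayes without trend, two-sided tests and Benjamini-Hochberg adjustment over 18417 genes at 0.05. Standard errors and intervals are moderated by limma. The p-values set a change against the spread between these 3 pairs, which limma draws toward the spread typical of all genes. The fit was also run on data simulated from the fitted model, with 200 genes changed by 1 log2 unit alike with every compound. It recovered 195 of them, with 11 false calls. These data follow the assumptions of the fit, so they cannot show how well different compounds serve as replicates. Alternatives were the fit without the block, quantile normalization, centring on the array median, dim genes left out, eBayes with trend, the brightest probe set per gene, each experiment left out and, by compound, the mean of the 3 DMSO arrays as control. The number of arrays limits the precision. Counts and plots were made in Python (3.11.15) by means of pandas 2.3.3, numpy 2.4.6 and matplotlib 3.10.9.

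The members and the gene lists were chosen with earlier results of these data known, and the counts of arrays that do not overlap and the span classes were added after values had been seen. By rule, the genes named are the 9 members, the 3 genes of each repair list with the largest mean change among those called and moving one way in all 3 experiments, and the gene most correlated with each member. REV3L, ATM and WRN were named after their values were seen, and markers were named from their list.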

Additional observations from a re-analysis of the deposited data

Results flagged for a closer look

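BRCA1 changed by -0.27 on the log2 scale with RM, against 0.40 (ET-770) and 0.84 (ET-770-DR), so that the sign with RM was the opposite one, at doses that differed. RAD52 changed by -0.0083 with RM, against 0.35 for both ET-770 and ET-770-DR. Each value rests on 1 array per arm, and the difference between compounds was not tested. The direction of BRCA1 with RM turned against the mean of the 3 DMSO arrays (0.11), and that of RAD52 after quantile normalization (0.03).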

How the results depend on the processing

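Without the replicate block, which ignores the pairing of each compound with its own DMSO array, the counts from limma were 0 members risen and 0 fallen, 0 recombination partner genes risen and 1 fallen (BABAM2), and 0 Fanconi partner genes risen, and over all genes 26 rose and 369 fell in place of 2406 and 2065. With each experiment left out in turn, members risen ranged from 1 to 4 (1 without ET-770, 4 without RM), recombination partner genes risen from 8 to 18 (18 without RM), Fanconi partner genes risen from 4 to 12 (4 without ET-770) and Fanconi partner genes fallen from 0 to 1 (REV3L, without ET-770-DR). Over all genes, 3506 rose without the RM experiment and 1200 without the ET-770 experiment. The cause was not tested. For single members in the shared response, 47 of the values kept their direction and their side of the threshold, 5 lost the call (4 of them without the block), 2 gained it and 0 reversed. By compound, 61 values moved by less than the spread of the 3 changes and 11 by more, 10 of them when the DMSO arrays were averaged into 1 control. That control moved the median change of all genes to 0.45 (ET-770), -0.25 (ET-770-DR) and -0.13 (RM). The 3 pairs leave few degrees of freedom, and the arrays give no depth by which a single value could be weighed.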
